A study of Mus musculus with 4 samples.

Results

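The 40 genes described here are imprinted genes of the mouse, taken as a list of symbols and matched by name to the 53677 gene symbols of the count tables. All 40 were listed there. In other tissues 22 of them are known as paternally expressed and 17 as maternally expressed, and Gnas gives transcripts from either allele. The libraries were made from mouse germinal vesicle (GV) oocytes, which are arrested in meiotic prophase before maturation. There were 2 groups, Ell3 knockdown oocytes (Ell3 KD) and control oocytes (Ctrl), with 2 Smart-seq2 libraries each and 5 oocytes per library. All donors of oocytes, in both groups, had received 7.5 IU of the gonadotropin PMSG 48 h earlier. The sources used here give no strain, age or means of knockdown and do not name the animal behind each library. The p-values therefore set the group difference only against the spread between these 4 libraries, part of which may be technical. That spread was estimated with information shared over all genes tested (26.3 total degrees of freedom). A lower level in such bulk samples cannot be told apart from a shift in the rest of the RNA, because values are relative within a library.

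Imprinted genes are expressed from the allele of a single parent because their control regions carry DNA methylation set in the egg or in the sperm. In the growing oocyte the old imprints have been erased and the maternal marks are written on both homologues, by DNMT3A with its cofactor DNMT3L. Oocyte-derived marks silence, among others, Peg3, Mest, Snrpn, Plagl1 and Peg10 on the maternal chromosome, whereas the H19 and Meg3 regions are marked in sperm. Zdbf2 was grouped with the latter for the counts below, a grouping that these data do not check. A GV oocyte therefore holds both alleles in a maternal-type or still changing state. Counts per gene do not tell alleles apart, and the terms maternally and paternally expressed name below what a gene is known for in other tissues.

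Ell3, which encodes an RNA polymerase II elongation factor and was the targeted gene, had 255 and 181 counts in Ell3 KD, against 371 and 483 in Ctrl. In log2 units this was a fall of 1.66 ± 0.14 (SE; edgeR adjusted p = 6.04e-10). Serinc4, annotated on that strand too, covers 65.6% of the Ell3 exon bases, so part of these counts may belong to either gene. Library totals were 89632815 and 65722415 counts in Ell3 KD and 45131278 and 48669267 in Ctrl, so the groups did not overlap in depth. The 14 oocyte markers, such as Zp3 and Gdf9, summed to 28146 and 28091 scaled CPM (read counts relative to library size, corrected by TMM factors) in Ell3 KD and to 29188 and 28541 CPM in Ctrl, with 3 rising (Oosp1, Dppa3, Ooep) and 4 falling (Zp1, Gdf9, Nobox, Nlrp5). Markers of cumulus and granulosa cells summed to 64.0 and 67.9 CPM in Ell3 KD and to 69.0 and 65.8 CPM in Ctrl; of their 20 genes, 4 rose (Gja1, Inha, Ptgs2, Hsd3b1) and 2 fell (Nr5a2, Col4a1), and 5 had too few counts to be tested. Of these 5, Amh (9 and 5 counts), Amhr2 (8 and 3 counts) and Foxl2 (4 and 3 counts) were seen in Ell3 KD and had no count in Ctrl. Pgr had no count in Ell3 KD and 4 and 3 counts in Ctrl, and Has2 had 2 and 2 counts in Ell3 KD and 7 and 3 counts in Ctrl. Theca and stroma markers summed to 3.49 and 3.54 CPM in Ell3 KD and to 3.41 and 3.54 CPM in Ctrl. Of their 10 genes, 4 could be tested and 1 (Dcn) rose. Blood and macrophage markers summed to 1.43 and 1.25 CPM in Ell3 KD and to 2.76 and 3.34 CPM in Ctrl. Of their 10 genes, 7 were at 0 in all libraries, and the 2 that could be tested (Cd68, Alas2) fell. For comparison, 42.9% of all genes tested were called (edgeR adjusted p under 0.05). The part of these markers in the results on imprinted genes was not tested.

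Of the 40 imprinted genes, 32 passed the filter on low counts and 25 had a mean of at least 1 CPM over the 4 libraries. Per exon length, as TPM (transcript abundance corrected for exon length, computed here), Mest was the highest, with 339 and 346 TPM in Ell3 KD and 426 and 414 TPM in Ctrl. H13 came next at 89.8 and 88.5 TPM in Ell3 KD and 88.2 and 89.4 TPM in Ctrl, followed by Tssc4, at 71.0 and 65.9 TPM in Ell3 KD and 75.3 and 74.96 TPM in Ctrl, and Phlda2, at 54.1 and 52.3 TPM in Ell3 KD and 49.5 and 51.1 TPM in Ctrl. These levels did not overlap between the genes, so the order of the first 4 was the same in every library. Both parental classes thus held abundant and absent members: Mest alone took 77.0% and 77.7% of the summed CPM of the paternally expressed class in Ell3 KD and 77.7% and 78.2% in Ctrl. H13, which encodes a signal peptide peptidase, took 49.95% and 50.5% of that of the maternally expressed class in Ell3 KD and 49.0% and 49.2% in Ctrl. The allele expressed from H13 differs by polyadenylation site, which counts per gene do not separate, so its place in the maternally expressed class is uncertain.

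**Figure D1:**
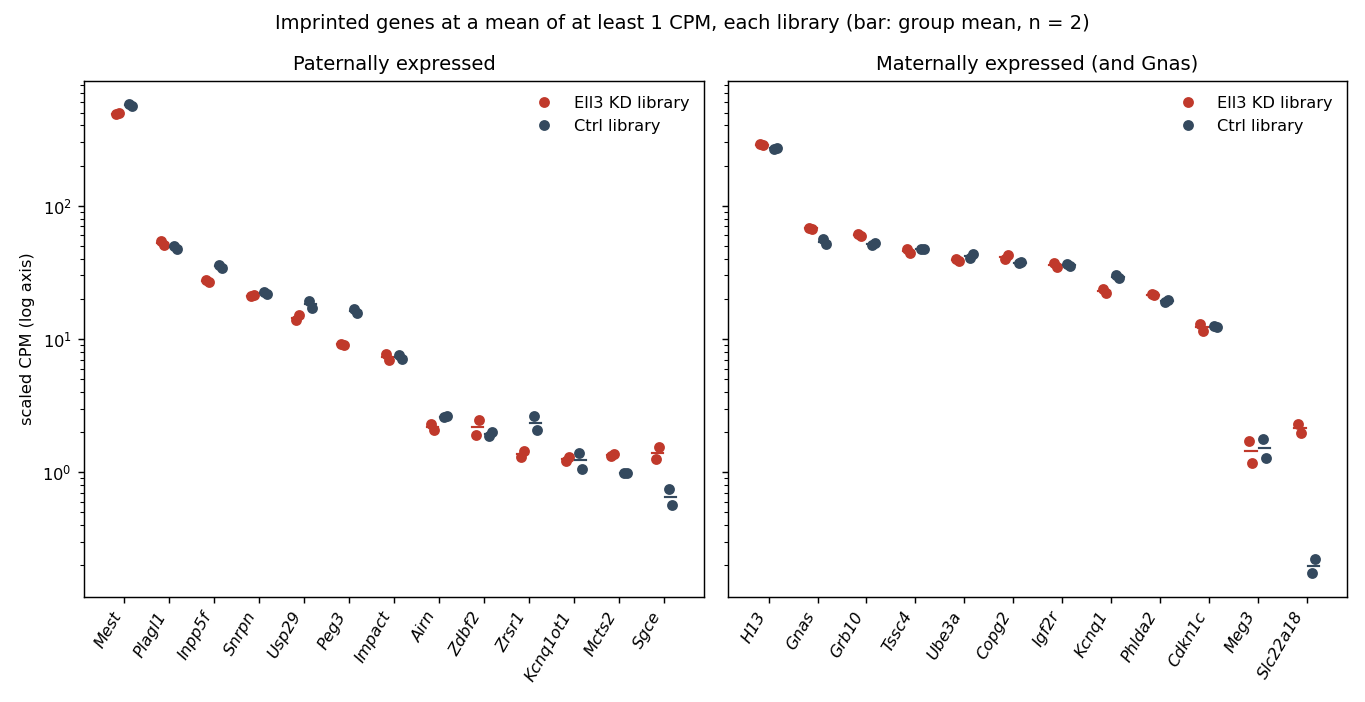
Scaled CPM on a log axis of the 25 imprinted genes at a mean of at least 1 CPM, with each library as a point (Ell3 KD red, Ctrl dark) and a bar at the group mean, n = 2 each. Most genes lie at like heights in both groups, and Slc22a18 stands apart, at 2.31 and 1.96 CPM in Ell3 KD and 0.175 and 0.223 CPM in Ctrl.

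In Ell3 KD oocytes 6 of the 32 tested imprinted genes rose and 10 fell (edgeR quasi-likelihood test, adjusted p under 0.05 over all genes tested). These 16 of 32 stand against 42.9% of all 17879 genes tested, with 21.1% of all genes higher and 21.8% lower in Ell3 KD, so the share of imprinted genes called lay near that of all genes. Split by parent, 1 of the 17 tested paternally expressed genes rose (Sgce) and 8 fell (Mest, Peg3, Usp29, Inpp5f, Zrsr1, Nespas, Ndn and Peg10). Ndn and Peg10 passed the filter on low counts only through Ctrl, where they were higher. Their falls are therefore no support for this split, and the paternal median of -0.25 below includes them. Of the 14 tested maternally expressed genes, 4 rose (Slc22a18, Grb10, Copg2 and H13) and 2 fell (Kcnq1 and Zim1). The median log2 fold change was -0.25 for the paternally and -0.034 for the maternally expressed genes tested, and -0.0024 for all genes tested. At a mean of at least 1 CPM the median was -0.061 for 13 paternally and -0.00032 for 11 maternally expressed genes, and 0.00073 for all genes. Under 1 CPM it was -1.78 for the 4 paternally and -0.41 for the 3 maternally expressed genes tested, and -0.025 for all genes tested. The difference between the parental classes was not tested. With DESeq2's size factors in place of TMM factors the split was 2 against 8 for the paternally and 4 against 2 for the maternally expressed genes.

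Among the 25 imprinted genes at 1 CPM or more, all of which were tested, 12 were called, 6 up and 6 down, against 47.8% of all genes at that level. Calls of at least 2-fold were made for 6 of the 32 (2 up and 4 down), against 9.39% of all genes tested. Only Slc22a18 and Sgce of the 25 changed that much, a size that 2.97% of all genes at that level reached with a call. Slc22a18 and Sgce had means of 0.199 and 0.655 CPM in Ctrl. They reached 1 CPM only through Ell3 KD, where they were higher, so their presence at that level is no separate support for the rise. Of 15 imprinted genes under 1 CPM, 7 could be tested and 4 of these fell (Zim1, Nespas, Ndn, Peg10), against 28.9% of all genes called under 1 CPM. A low gene can pass the filter through the group in which it is high, as Ndn and Peg10 did through Ctrl, which favours a call. Tested against a change of at least 1.5-fold, 4 of the 32 were called (Slc22a18 up, Peg3, Zim1 and Nespas down), where 4.98% of all genes tested were. With an assumed biological coefficient of variation of 0.2 instead of the small estimated one of 0.0421, 7 of the 32 were called (Slc22a18, Sgce, Peg3, Zim1, Nespas, Ndn and Peg10), where 11.0% of all genes were.

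**Figure D2:**
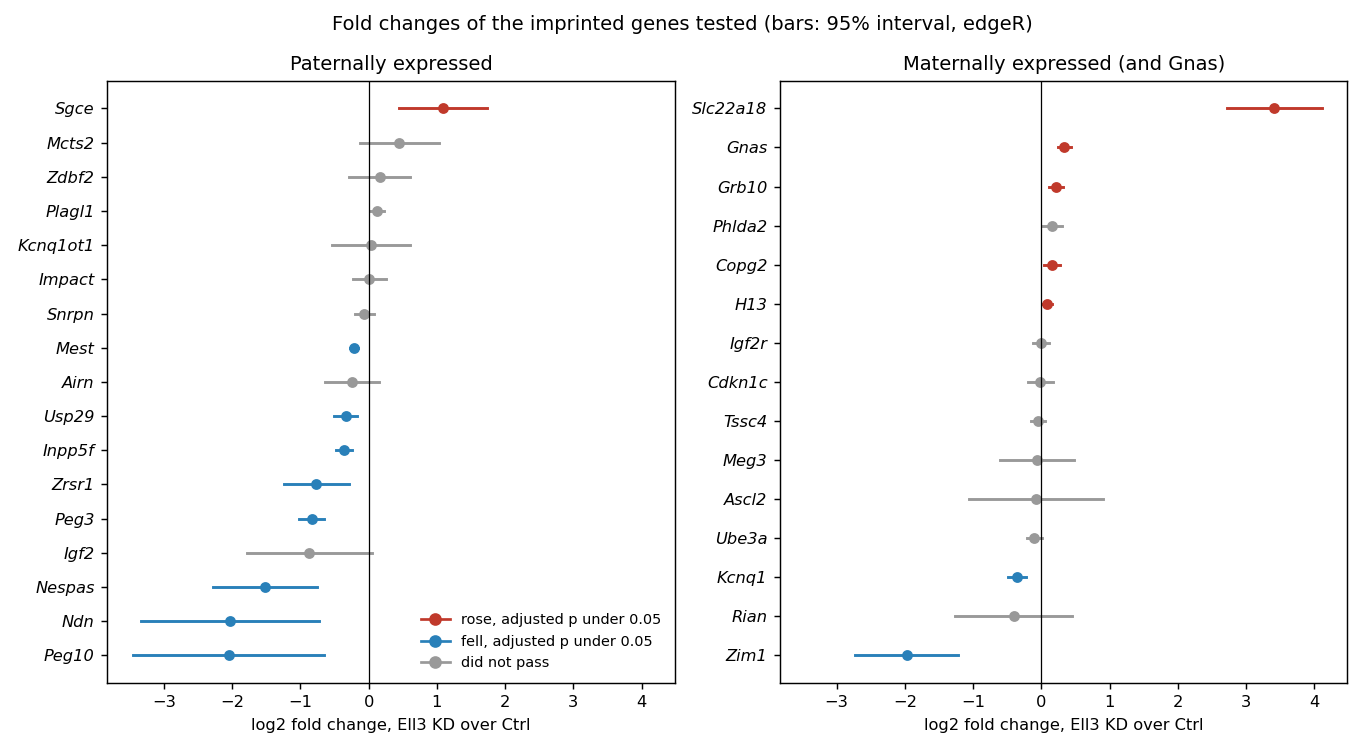
Log2 fold change of Ell3 KD over Ctrl for the 32 imprinted genes tested, with 95% intervals from the edgeR fit, paternally expressed genes on the left and maternally expressed genes with Gnas on the right. Slc22a18 lies at 3.41 and Zim1 at -1.97 among the maternally expressed genes, and Sgce at 1.09 is the only paternally expressed gene called higher.

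Mest, also called Peg1, encodes a hydrolase-like protein and was the most abundant of the set. It had 484 and 494 CPM in Ell3 KD, against 575 and 558 CPM in Ctrl. Both Ell3 KD libraries lay below both Ctrl libraries, a fall of 0.21 ± 0.03 on the log2 scale (SE) that edgeR called at an adjusted p = 3.43e-06. On chromosome 6 of GRCm38 it spans 30723547 to 30748465, with 23.1% of its exon length overlapping Copg2 on the opposite strand. Copg2, a coatomer subunit gene, went the other way, with 39.9 and 42.9 CPM in Ell3 KD and 36.9 and 37.5 CPM in Ctrl. Its log2 fold change was 0.15 ± 0.06 (edgeR adjusted p = 0.0289), and the call was lost without Ell3 KD replicate 2 (adjusted p = 0.297), Ctrl replicate 1 (adjusted p = 0.0922) or Ctrl replicate 2 (adjusted p = 0.0515) and with DESeq2 (adjusted p = 0.0764). No source used here says whether reads were counted by strand, so reads of such overlapping genes cannot be assigned with certainty.

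The promoter of Mest is shown because it holds the hexamer TGCCGC, the motif that the imprint guardian ZFP57 binds when it is methylated. The window, from RefSeq on GRCm38.p6, runs from 250 bases before to 50 bases after a transcript start at chr6:30737800-30738099 on the plus strand, and capitals mark CpG, the dinucleotide that is methylated.
Mest: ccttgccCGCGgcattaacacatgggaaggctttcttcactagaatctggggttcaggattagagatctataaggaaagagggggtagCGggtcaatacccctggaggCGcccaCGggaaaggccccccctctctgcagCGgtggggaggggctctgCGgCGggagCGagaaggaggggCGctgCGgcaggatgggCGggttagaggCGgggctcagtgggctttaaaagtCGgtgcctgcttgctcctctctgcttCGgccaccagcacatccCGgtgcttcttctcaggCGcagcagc
It has 17 CpG, a number that 31.4% of all 32851 promoter windows of that length reach, and 2 matches to TGCCGC on both strands together. Of all windows 11.6% hold the motif. Impact was left out of the count for imprinted genes. Of the 32 imprinted genes whose windows were counted, which have 46 windows, 13 windows held the motif. These belong to 12 genes, 8 of the 18 paternally and 4 of the 13 maternally expressed genes counted. A match is a description of letters and not a measured site.

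Peg3, Usp29 and Zim1, neighbours on chromosome 7, all fell in Ell3 KD. Peg3, which encodes a zinc finger protein, had 9.18 and 9.01 CPM in Ell3 KD, against 16.8 and 15.7 CPM in Ctrl. The groups lay well apart, Ell3 KD being 1.78-fold lower, or -0.83 ± 0.09 in log2 units (SE; edgeR adjusted p = 3.76e-08). Usp29, a ubiquitin-specific protease gene that starts 147 bases from Peg3 on the other strand, had 13.9 and 15.0 CPM in Ell3 KD and 19.4 and 17.1 CPM in Ctrl. Its fall was 0.34 ± 0.08 in log2 units (edgeR adjusted p = 0.00173). Zim1, a zinc finger gene of the same region that is expressed from the maternal allele, had 31 and 22 counts in Ell3 KD and 69 and 60 counts in the less deeply sequenced Ctrl libraries. At 0.350 and 0.340 CPM in Ell3 KD and 1.51 and 1.22 CPM in Ctrl its log2 fold change was -1.97 ± 0.37 (edgeR adjusted p = 1.10e-04). Of the neighbours outside the set, Zfp264 fell by 1.46 ± 0.34 in log2 units (edgeR adjusted p = 0.00101), while no call was made for Zim2, at 0.42 ± 0.27, or Zim3, at -0.41 ± 0.45 (edgeR adjusted p of 0.210 and 0.487). Genes that are known for opposite parental alleles, Peg3 and Zim1, thus both fell.

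The Peg3 and Zim1 promoters are shown for this shared direction, again with CpG in capitals. The Peg3 window lies at chr7:6730370-6730669 on the minus strand and also spans the start of Usp29, and the Zim1 window lies at chr7:6696383-6696682 on the minus strand.
Peg3: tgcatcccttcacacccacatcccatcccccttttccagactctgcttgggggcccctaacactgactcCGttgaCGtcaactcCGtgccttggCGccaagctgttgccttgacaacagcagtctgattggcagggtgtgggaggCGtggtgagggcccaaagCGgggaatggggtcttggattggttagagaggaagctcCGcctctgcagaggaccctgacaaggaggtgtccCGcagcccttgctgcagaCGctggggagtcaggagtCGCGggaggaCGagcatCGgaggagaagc
Zim1: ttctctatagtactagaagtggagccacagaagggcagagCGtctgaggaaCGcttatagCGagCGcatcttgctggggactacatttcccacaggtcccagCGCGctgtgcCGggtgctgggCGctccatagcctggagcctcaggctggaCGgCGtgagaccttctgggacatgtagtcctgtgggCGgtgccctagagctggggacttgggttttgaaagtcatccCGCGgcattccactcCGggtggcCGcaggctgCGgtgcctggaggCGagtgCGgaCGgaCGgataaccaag
The first has 13 CpG and no TGCCGC, and the second has 20 CpG and 1 match.

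Among the 32 genes tested, the largest fitted change was the rise of Slc22a18, a gene of the Kcnq1 region that encodes a transporter-like membrane protein and is expressed from the maternal allele. It had 205 and 127 counts in Ell3 KD, against 8 and 11 counts in Ctrl. Group means were 2.14 ± 0.247 CPM in Ell3 KD and 0.199 ± 0.0338 CPM in Ctrl (SD, n = 2 each), 10.6-fold higher. In log2 units the rise was 3.41 ± 0.34 (SE; edgeR adjusted p = 1.23e-08). Among cells that could accompany an oocyte, the cumulus and granulosa markers Gja1, Inha, Ptgs2 and Hsd3b1 and the stroma marker Dcn also rose, while Nr5a2 and Col4a1 fell; their part in this result was not tested. Slc22a18 was called higher under each of the 11 other settings tried. It spans chromosome 7 from 143473736 to 143499334, and its exons share no base with another annotated gene. Its promoter window, at chr7:143473539-143473838 on the plus strand, is shown as a CpG-poor contrast to those above.
Slc22a18: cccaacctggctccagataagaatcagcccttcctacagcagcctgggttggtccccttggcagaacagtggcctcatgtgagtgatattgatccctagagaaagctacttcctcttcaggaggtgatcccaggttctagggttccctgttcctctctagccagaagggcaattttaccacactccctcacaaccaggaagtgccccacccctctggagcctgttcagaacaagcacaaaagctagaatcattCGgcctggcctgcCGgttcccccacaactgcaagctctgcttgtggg
It has 2 CpG, a number that 85.9% of all windows reach, and no TGCCGC.

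Of the genes outside the set drawn for the Kcnq1 region, Cd81 was called higher and Nap1l4 was not called. Cd81 had 5.71 and 5.71 CPM in Ell3 KD and 4.37 and 4.03 CPM in Ctrl. Its rise was 0.44 ± 0.14 in log2 units (edgeR adjusted p = 0.0109). None of the members of the region described next was called higher. Phlda2, whose product limits growth of the placenta, had 21.9 and 21.2 CPM in Ell3 KD and 18.97 and 19.6 CPM in Ctrl, and its log2 fold change of 0.16 ± 0.07 was not called (edgeR adjusted p = 0.0639). Cdkn1c, the gene of the cell cycle inhibitor p57, had 12.9 and 11.5 CPM in Ell3 KD and 12.5 and 12.2 CPM in Ctrl, with overlapping groups (log2 fold change -0.02, 95% interval from -0.20 to 0.17). Kcnq1, a potassium channel subunit gene, was lower, with 23.8 and 22.0 CPM in Ell3 KD and 29.9 and 28.8 CPM in Ctrl. This was a log2 difference of -0.36 ± 0.06 (edgeR adjusted p = 8.30e-05). Kcnq1ot1, the noncoding RNA antisense to Kcnq1 that silences the region on the paternal chromosome in other tissues, had 1.22 and 1.30 CPM in Ell3 KD and 1.40 and 1.05 CPM in Ctrl, with overlapping groups. Tssc4, a gene of a spliceosome-associated protein, at 47.4 and 44.0 CPM in Ell3 KD and 47.6 and 47.2 CPM in Ctrl, differed by -0.05 ± 0.05 in log2 units (edgeR adjusted p = 0.457). Ascl2, a placental transcription factor gene, had 37 and 30 counts in Ell3 KD and 28 and 16 in Ctrl, with overlapping CPM.

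**Figure D3:**
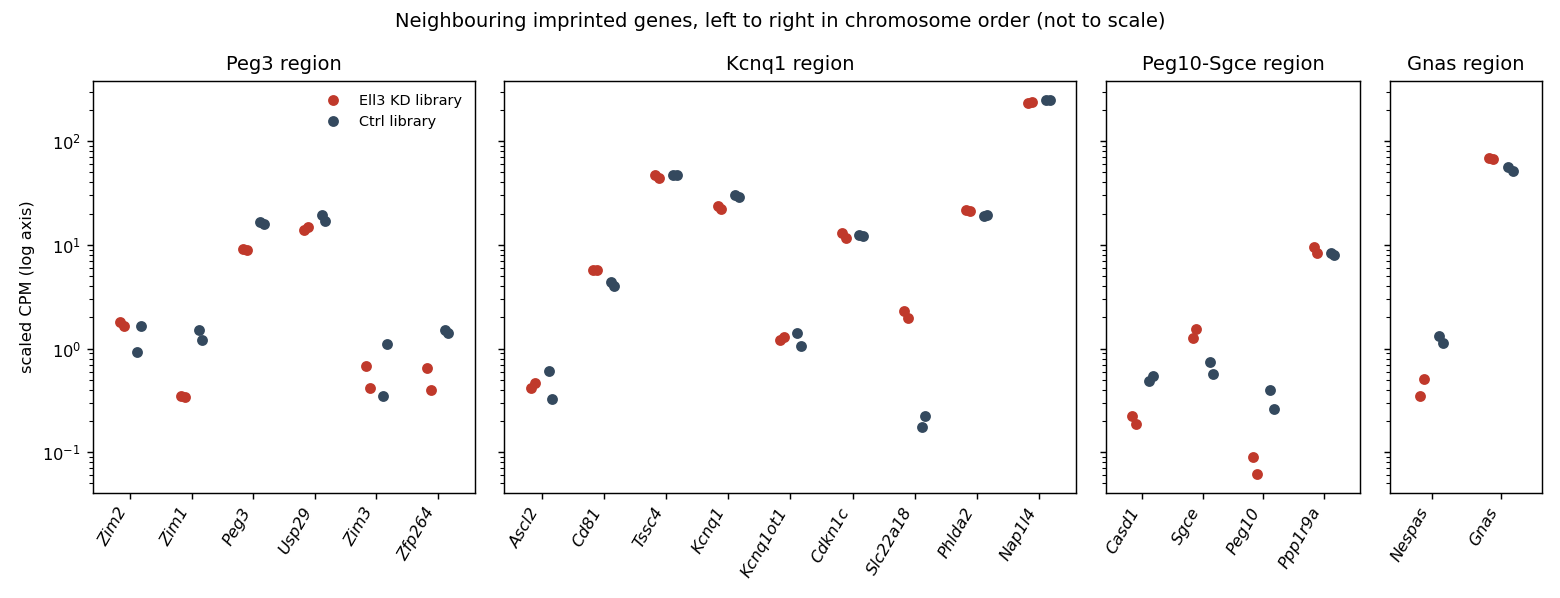
Scaled CPM on a log axis of imprinted genes and some neighbours in 4 regions, in chromosome order and not to scale, with each library as a point (Ell3 KD red, Ctrl dark). Peg3, Usp29, Zim1 and Zfp264 lie lower in Ell3 KD, Slc22a18 lies higher beside Cdkn1c and Phlda2, and Sgce and Peg10 lie on opposite sides.

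Sgce and Peg10 start 99 bases apart on opposite strands of chromosome 6 and moved in opposite directions. Sgce, which encodes epsilon-sarcoglycan, had 111 and 100 counts in Ell3 KD and 34 and 28 in Ctrl, or 1.25 and 1.55 CPM in Ell3 KD and 0.744 and 0.567 CPM in Ctrl. The rise was 1.09 ± 0.31 in log2 units (SE; edgeR adjusted p = 0.00614), and the call was lost without Ell3 KD replicate 2 (adjusted p = 0.0755). Peg10, a gene derived from a retrotransposon, had only 8 and 4 counts in Ell3 KD and 18 and 13 in Ctrl, a log2 difference of -2.05 ± 0.68 (edgeR adjusted p = 0.0169). That call was lost when any of the 4 libraries was left out (adjusted p between 0.0520 and 0.207) and with DESeq2 (adjusted p = 0.0694).

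At the Gnas locus on chromosome 2, Gnas rose and its antisense RNA fell. Gnas, which encodes the stimulatory G protein alpha subunit that keeps cyclic AMP high in arrested oocytes, had 68.4 and 67.4 CPM in Ell3 KD and 55.9 and 51.6 CPM in Ctrl. The rise was 0.34 ± 0.05 in log2 units (SE; edgeR adjusted p = 3.48e-06). Nespas, a paternally expressed antisense RNA, had 31 and 33 counts in Ell3 KD and 60 and 56 in Ctrl, or 0.350 and 0.510 CPM in Ell3 KD and 1.31 and 1.13 CPM in Ctrl. Nespas thus fell by 1.52 ± 0.37 in log2 units (edgeR adjusted p = 0.00160). Gnas and other opposite-strand genes share 38.5% of the exon length of Nespas, so the counts of Nespas are uncertain. Counts per gene also do not separate the transcripts of Gnas.

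Among genes of growth signalling, Grb10, the gene of an adaptor that restrains insulin-type receptors, had 61.3 and 59.4 CPM in Ell3 KD and 51.1 and 52.8 CPM in Ctrl. It rose by 0.22 ± 0.05 on the log2 scale (SE; edgeR adjusted p = 6.40e-04). Igf2r, the receptor gene whose product clears insulin-like growth factor 2, had 37.1 and 34.8 CPM in Ell3 KD and 36.5 and 35.5 CPM in Ctrl, and its 95% interval ran from -0.12 to 0.12. Airn, the RNA antisense to Igf2r, had 2.30 and 2.09 CPM in Ell3 KD and 2.58 and 2.63 CPM in Ctrl and was not called (edgeR adjusted p = 0.328). The ligand gene Igf2 itself had 44 and 18 counts in Ell3 KD and 24 and 45 in Ctrl, and its CPM did not overlap. Its log2 fold change of -0.87 ± 0.45 did not pass (edgeR adjusted p = 0.120), except when Ctrl replicate 1 was left out (-1.21, adjusted p = 0.0444). With single libraries left out the value ran from -1.36 (without Ell3 KD replicate 1) to -0.42 (without Ctrl replicate 2), and it was -0.53 without Ell3 KD replicate 2. Of the exon length of Igf2 62.8% is shared with Gm49394 on the same strand, so its counts are uncertain too. Plagl1, a zinc finger transcription factor gene, had 54.4 and 51.1 CPM in Ell3 KD and 49.6 and 47.6 CPM in Ctrl and missed the threshold (log2 fold change 0.12 ± 0.05, edgeR adjusted p = 0.0573). It was called without Ell3 KD replicate 2 (adjusted p = 0.0446), without Ctrl replicate 1 (adjusted p = 0.0416), with DESeq2's size factors (adjusted p = 0.0488), without the filter (adjusted p = 0.0362) and with a replicate block (adjusted p = 0.0378).

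In the Snrpn and Ube3a region, Snrpn and Ube3a were not called and Ndn fell. Snrpn, a gene of the splicing machinery, had 20.9 and 21.5 CPM in Ell3 KD and 22.6 and 21.6 CPM in Ctrl (edgeR adjusted p = 0.502). Snurf and Gm38393 share 27.3% of the exon length of Snrpn on the same strand, so its counts are uncertain. Ube3a, a ubiquitin ligase gene imprinted in neurons, had 39.5 and 38.2 CPM in Ell3 KD and 40.4 and 43.1 CPM in Ctrl (edgeR adjusted p = 0.128). Snhg14, the RNA antisense to Ube3a and no member of the set, had 1.38 and 1.28 CPM in Ell3 KD and 2.56 and 2.25 CPM in Ctrl, a fall of 0.85 ± 0.23 in log2 units (edgeR adjusted p = 0.00386). Opposite-strand genes, Snhg14 among them, share 27.3% of the exon length of Ube3a. Ndn, the necdin gene, had 13 and 3 counts in Ell3 KD and 19 and 21 in Ctrl. This was a log2 difference of -2.03 ± 0.64 (edgeR adjusted p = 0.0116). That call was lost without Ell3 KD replicate 2 (-1.50, adjusted p = 0.209), Ctrl replicate 1 (adjusted p = 0.0654) or Ctrl replicate 2 (adjusted p = 0.0730), and the value was -3.11 without Ell3 KD replicate 1. Magel2 had no count in Ell3 KD and 6 and 3 in Ctrl, and Mkrn3 had none in any library.

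Of the genes with control regions of their own, Inpp5f, an inositol phosphatase gene with 1 imprinted isoform, had 27.7 and 26.8 CPM in Ell3 KD and 36.0 and 34.2 CPM in Ctrl. It fell by 0.36 ± 0.06 on the log2 scale (SE; edgeR adjusted p = 2.39e-05). Zrsr1, a retrogene related to a splicing factor and lying within Commd1, had 1.31 and 1.45 CPM in Ell3 KD and 2.62 and 2.07 CPM in Ctrl. Its fall of 0.76 ± 0.23 (edgeR adjusted p = 0.00959) lost its call without Ell3 KD replicate 1 (adjusted p = 0.0650) or Ctrl replicate 1 (adjusted p = 0.0874). Its host gene Commd1, which rose by 0.21 ± 0.04 (edgeR adjusted p = 2.02e-04), went the other way. H13 had 288 and 285 CPM in Ell3 KD and 268 and 271 CPM in Ctrl. Its log2 fold change of 0.09 ± 0.03 (edgeR adjusted p = 0.0297) lost its call without Ell3 KD replicate 1, Ell3 KD replicate 2 or Ctrl replicate 1 (adjusted p = 0.179, adjusted p = 0.0753 and adjusted p = 0.101). Mcts2, a retrogene within H13, had 1.33 and 1.38 CPM in Ell3 KD and 0.984 and 0.992 CPM in Ctrl and did not pass (edgeR adjusted p = 0.199). Impact, the gene of an inhibitor of the translation kinase GCN2, had 7.67 and 7.004 CPM in Ell3 KD and 7.57 and 7.03 CPM in Ctrl, with overlapping groups (95% interval from -0.23 to 0.25). Reads of retrogenes such as Zrsr1 and Mcts2 may be shared with their parent genes, which makes their counts uncertain.

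No gene grouped under regions marked in sperm, Zdbf2 among them, was called, out of 7 listed and 4 tested. The noncoding RNA Meg3 had 1.70 and 1.18 CPM in Ell3 KD and 1.77 and 1.28 CPM in Ctrl, and Zdbf2 had 1.90 and 2.47 CPM in Ell3 KD and 1.88 and 2.00 CPM in Ctrl, with overlapping groups for both. Rian, a host RNA of small nucleolar RNAs, had 36 and 38 counts in Ell3 KD and 32 and 30 in Ctrl (edgeR adjusted p = 0.460), and its CPM did not overlap, being lower in Ell3 KD. At an unadjusted p under 0.05 edgeR gave 0 of these 4, and DESeq2 and limma-voom also called 0, while Igf2 was called without Ctrl replicate 1, as given above. Of the 28 tested genes of regions marked in the oocyte, 16 were called (57.1%), against 42.9% of all genes tested. At a mean of at least 1 CPM, 12 of 23 were called (52.2%), against 47.8% of all genes at that level. The 4 tested genes grouped under regions marked in sperm are too few to set beside either share, and the difference between the kinds of region was not tested.

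The genes that could not be tested were close to silent. H19 and Klf14, like Mkrn3, had no count in any library, which allows up to 0.0335 and 0.0456 CPM in Ell3 KD and 0.0665 and 0.0616 CPM in Ctrl, taking 3 counts as the limit for counting error. Nap1l5, a retrogene within Herc3, had 6 and 8 counts in Ell3 KD and none in Ctrl. Dlk1 had no count in Ell3 KD and 5 and 1 in Ctrl, Mirg none in Ell3 KD and 2 and 2 in Ctrl, and Nnat 1 and 0 in Ell3 KD and 1 and 8 in Ctrl. When the filter was dropped, Magel2 was the only one of these called (edgeR adjusted p = 0.0438), and Nap1l5 was not (edgeR adjusted p = 0.0531).

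Genes that set or protect imprints were called in both directions. Of 41 listed, 40 were tested, 13 rose and 9 fell, 55.0% of those tested. All 40 had a mean of at least 1 CPM, a level at which 47.8% of all genes were called, so the share lay near the background, with a median log2 fold change of 0.0024. None changed 2-fold, and 0 were called by edgeR against a 1.5-fold change (0 at an unadjusted p under 0.05 too) or with the assumed coefficient of variation (1 at an unadjusted p under 0.05), while DESeq2 called 19 and limma-voom 22. Of the enzymes that write the marks, Dnmt3a had 240 and 234 CPM in Ell3 KD and 285 and 284 CPM in Ctrl, a fall of 0.26 ± 0.03 on the log2 scale (SE; edgeR adjusted p = 5.18e-07). Kdm1b, a histone demethylase gene needed for maternal imprints, had 193 and 192 CPM in Ell3 KD and 258 and 252 CPM in Ctrl, a fall of 0.41 ± 0.03 (edgeR adjusted p = 4.86e-10).

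Of the factors that protect imprints after fertilization, Trim28, the corepressor gene that acts with ZFP57, had 79.6 and 76.8 CPM in Ell3 KD and 57.2 and 58.9 CPM in Ctrl. It rose by 0.43 ± 0.05 on the log2 scale (SE; edgeR adjusted p = 3.00e-08). Dppa3, whose product shields the maternal genome from demethylation, had 1480 and 1492 CPM in Ell3 KD and 1041 and 1077 CPM in Ctrl, a rise of 0.49 ± 0.03 (edgeR adjusted p = 2.55e-13). Dppa3, Ooep, Nlrp5 and Padi6 also stand among the 14 oocyte markers. Genes of the subcortical maternal complex went both ways: Ooep rose by 0.40 and Khdc3 by 0.23, Nlrp5 fell by 0.23 and Tle6 by 0.16 (highest edgeR adjusted p = 8.05e-06), and Padi6, at 4365 ± 25.4 CPM in Ell3 KD and 4446 ± 78.0 CPM in Ctrl (SD, n = 2 each), was not called (edgeR adjusted p = 0.393). The related gene Nlrp14, at -0.05 to 0.05 in its 95% interval, did not pass either.

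**Figure D4:**
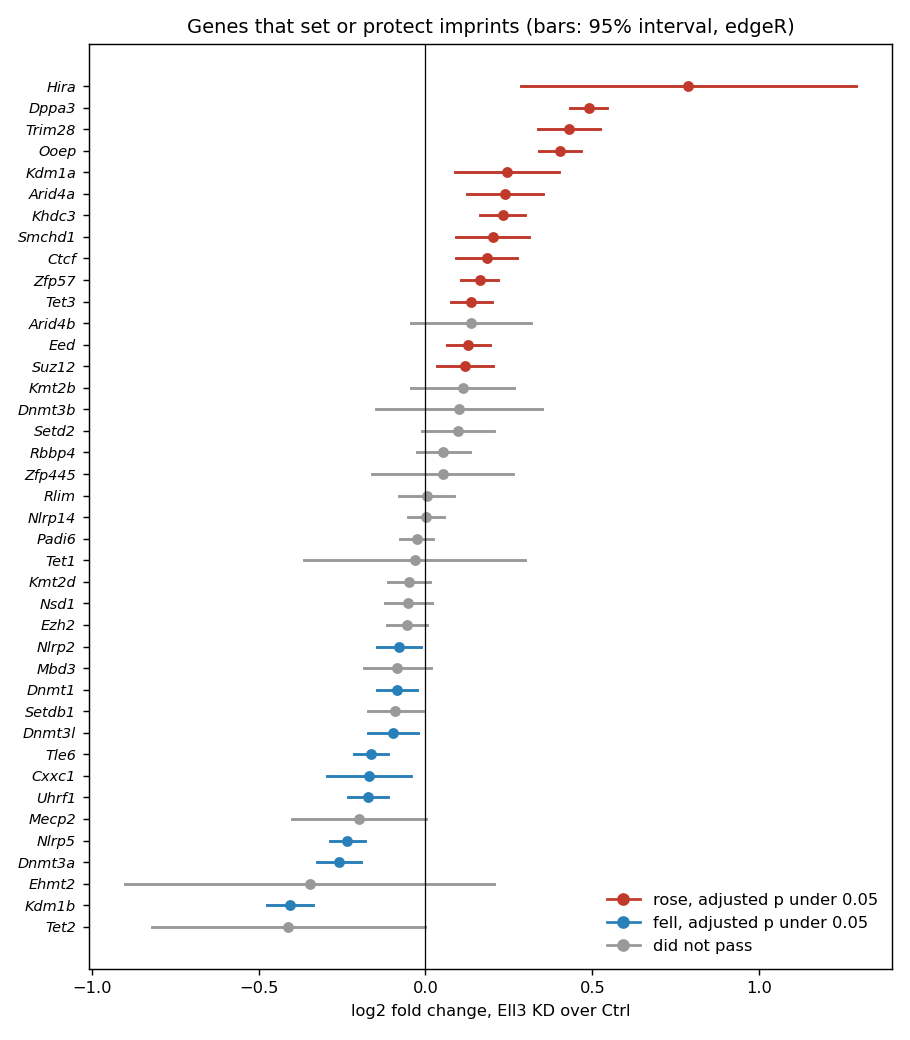
Log2 fold change of Ell3 KD over Ctrl with 95% intervals for the 40 tested genes that set or protect imprints, red where called higher and blue where called lower. Dppa3 lies at 0.49 and Kdm1b at -0.41, and no gene called reaches 1 or -1.

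A further 53 imprinted genes outside the set, listed by name, gave a like share of calls. Of 38 tested, 10 rose and 8 fell, 47.4% against 42.9% of all genes, with a median log2 fold change of 0.04. Dcn, among those that rose, also stands among the theca and stroma markers. At a mean of 1 CPM or more, 13 of 26 were called, against 47.8% of all genes. Asb4 had 67.0 and 67.6 CPM in Ell3 KD and 50.7 and 52.2 CPM in Ctrl, a rise of 0.39 ± 0.05 on the log2 scale (SE; edgeR adjusted p = 2.73e-07). Cdh15, a cadherin gene, had 3.29 and 2.55 CPM in Ell3 KD and 1.07 and 1.26 CPM in Ctrl, a rise of 1.33 ± 0.22 (edgeR adjusted p = 2.92e-05). Dhcr7, the last enzyme gene of cholesterol synthesis, had 12.6 and 12.01 CPM in Ell3 KD and 17.5 and 16.7 CPM in Ctrl, a fall of 0.47 ± 0.08 (edgeR adjusted p = 5.81e-05). Ampd3 and Cobl rose by 0.28 and 0.20. The abundant genes Bcl2l1, Nap1l4, Gpr1 and Blcap were not called, with log2 fold changes between -0.07 and 0.07.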

How the data were processed

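RNA-seq gene counts of 4 libraries were analysed, 2 Ell3 KD and 2 Ctrl, grouped by sample title. The authors' deposited values are raw counts per gene symbol, made with build mm10, featureCounts, HISAT2 2.2.1.0 and FastQC 0.11.5, per the submitters' processing notes. The sources used here give no annotation, strand setting or treatment of multi-mapped reads.

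The test was that of edgeR 4.0.16 under R 4.3.3 (low-count filter filterByExpr, TMM, quasi-likelihood F test, two-sided, no covariates) over 17879 genes, with Benjamini-Hochberg adjustment and a threshold of 0.05. SE is the log2 fold change over the square root of F. Alternatives used DESeq2 1.42.0 and limma 3.58.1. CPM was scaled by TMM factors (0.984 to 1.015), TPM used GENCODE M21 exons, and promoters came from RefSeq. Fits were tested on simulated data. Intervals and limits cover counting error or spread between libraries as stated.

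All 40 members are accounted for. From the list of genes that mark imprints, the 4 highest and the 8 called with the smallest p are named, and from the other imprinted genes the 4 highest and the 6 called with the smallest p at 1 CPM or more. Cell type markers, neighbouring genes, Zfp264, Zim2 and Zim3 were named after their values were seen. Members, lists, parental classes and tests were chosen with earlier results of these data known.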

Additional observations from a re-analysis of the deposited data

How the results depend on the processing

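Under the other 11 settings, counts of calls stayed within 1.5 times those reported except with the assumed coefficient of variation of 0.2 and the test against a 1.5-fold change. With the assumed coefficient, 1964 of all genes, 7 imprinted genes, 2 maternally and 5 paternally expressed genes, 0 imprint marking genes and 10 other imprinted genes were called by edgeR. Against a 1.5-fold change these were 890, 4, 2, 2, 0 and 4. For the imprint marking genes, 1 and 0 had an unadjusted p under 0.05 in these fits, and DESeq2 called 19 and limma-voom 22. Leaving out each library in turn gave 5719 to 6921 for all genes, 12 to 13 for imprinted genes, 4 to 5 for maternally and 7 to 8 for paternally expressed genes, 16 to 21 for imprint marking genes and 16 to 17 for other imprinted genes.

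Genes that were not called and lay near 0 changed sign. Igf2r, at -0.00032, was at 0.0034 with DESeq2's size factors, 0.0028 with DESeq2, 0.0029 with limma-voom and 0.012 without the filter, and Blcap was at 0.00021 without the filter. With libraries left out, the ranges were -0.0469 to 0.0486 for Igf2r, -0.368 to 0.185 for Meg3, -0.158 to 0.253 for Kcnq1ot1, -0.0989 to 0.063 for Cdkn1c, -0.48 to 0.436 for Ascl2, -0.104 to 0.00362 for Tssc4, -0.0558 to 0.0772 for Impact, -0.032 to 0.35 for Zdbf2, -0.0214 to 0.0196 for Nlrp14 and -0.0361 to 0.00797 for Blcap. The cause was not tested.

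With the replicate number as a block, 17 imprinted genes (7 up, 10 down) and 7881 of all genes were called, against 16 and 7676. Same-numbered libraries had deviations from their group means that correlated at 0.029 over genes, with 2 pairs only, so the numbers are not taken as pairing. Among the 32 imprinted genes tested and 21 other genes refitted by name, the block added calls for Plagl1 and Nap1l4 and changed no other call. Markers and most neighbours were not followed gene by gene. The Ell3 KD libraries were deeper than the Ctrl libraries, so depth and group cannot be told apart, and genes under 1 CPM rest on few counts.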
